A study of Mus musculus with 12 samples.

Results

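The members described here are the genes of respiratory complexes II to V, with cytochrome c, and the Cox-named genes that help to build complex IV. They were taken by name: Sdha to Sdhd, Cycs, Cyc1, and every symbol on the array that starts with Uqcr, Atp5, or Cox followed by a digit. The rule took 85 probe identifiers, which carried 59 distinct features for 55 genes, out of 30854 distinct features for 19013 gene symbols. Each gene was represented by the feature with the highest mean over the 12 arrays. By role the 55 genes were 4 of complex II, 8 of complex III, cytochrome c itself, 16 subunits of complex IV, 10 assembly factors and other Cox-named genes, 5 genes of the F1 part of complex V, 9 of its Fo part and stalk, and 2 other Atp5-named genes.

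RNA came from the whole hearts of 3-week-old FVB/N females, 1 heart per array on Illumina MouseWG-6 v2.0 BeadChips. MHC-CELFΔ mice carry a transgene for a nuclear dominant negative CELF protein, an inhibitor of CELF splicing activity, driven in heart muscle by the α-myosin heavy chain promoter. The mild line (MHC-CELFΔ-574) and the severe line (MHC-CELFΔ-10) were each kept as hemizygotes and were each represented by 3 transgenic females and 3 wild type female littermates. The 6 wild type hearts were pooled, as in the methods of the study. Each line is a single transgenic line, so an effect of the transgene and of the place where it lies in that line cannot be told apart. Since whole hearts were used, fewer cells of a type and less RNA per cell cannot be told apart either.

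The respiratory chain sits in the inner membrane of mitochondria, which fill much of a heart muscle cell. Complex II (succinate dehydrogenase) passes electrons from the citric acid cycle to ubiquinone, complex III passes them on to the small carrier cytochrome c, and complex IV (cytochrome c oxidase) hands them to oxygen. Complexes III and IV pump protons, and complex V (ATP synthase) uses the returning protons to turn its Fo ring and make ATP in its F1 head. Complex II is built from nuclear genes alone, whereas the other complexes also take subunits from the mitochondrial genome. Several subunits of complex IV exist as a heart and muscle isoform and a more widely used isoform.

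Promoters of nuclear respiratory genes are known for sites of NRF1, of ETS family factors such as GABP, of the estrogen-related receptors, of YY1 and of Sp1. RefSeq promoter windows (GRCm38.p6, from 250 bases before to 50 bases after a start of the gene) were held for 41 of the 55 members, as 45 windows. On either strand, the ETS letters CCGGAAG were found in 18 of the 45 windows (40%), and in 8.86% of all 32851 windows. The NRF1 letters GCGCATGCG were found in 7 windows (15.6%, and 1.75% of all windows). The Sp1 letters GGGCGG were found in 21 (46.7%, and 35.7% of all windows), the YY1 letters AAGATGGCG in 3 (6.67%, and 1.4%) and the ERR letters TCAAGGTCA in 2 (4.44%, and 0.423%). A match is a description of the letters only. The 150 bases before the start are shown for 6 genes on which the results below turn, 5 that were lower in the severe line and Cox19, which was higher in both lines. For Cox7a2 the start that the table uses lies inside the annotated gene (chr9:79755241-79771422), and for the other 5 it is the first base of the annotated gene. Capitals mark a match on either strand that lies wholly in the bases shown, and none of these matches overlap. They are GGGCGG read on the other strand in Sdhb, CCGGAAG on the other strand in Sdhd, GCGCATGCG on the other strand in Cycs, GGGCGG in Cox7a2, CCGGAAG on the other strand and GGGCGG in Atp5e, and GGGCGG in Cox19.
Sdhb, chr4:140961121-140961270, plus strand: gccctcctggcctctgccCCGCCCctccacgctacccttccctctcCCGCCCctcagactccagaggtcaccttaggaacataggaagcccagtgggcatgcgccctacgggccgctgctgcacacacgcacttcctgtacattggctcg
Sdhd, chr9:50603850-50603999, minus strand: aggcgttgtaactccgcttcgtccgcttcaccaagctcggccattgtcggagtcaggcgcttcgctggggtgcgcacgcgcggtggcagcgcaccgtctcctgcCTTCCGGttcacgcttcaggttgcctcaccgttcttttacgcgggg
Cycs, chr6:50566570-50566719, minus strand: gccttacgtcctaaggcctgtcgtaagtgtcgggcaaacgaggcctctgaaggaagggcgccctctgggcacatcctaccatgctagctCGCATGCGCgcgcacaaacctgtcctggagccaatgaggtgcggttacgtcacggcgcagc
Cox7a2, chr9:79759854-79760003, minus strand: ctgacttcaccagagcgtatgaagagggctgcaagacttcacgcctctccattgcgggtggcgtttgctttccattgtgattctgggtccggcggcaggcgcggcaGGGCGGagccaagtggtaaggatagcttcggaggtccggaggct
Atp5e, chr2:174464102-174464251, minus strand: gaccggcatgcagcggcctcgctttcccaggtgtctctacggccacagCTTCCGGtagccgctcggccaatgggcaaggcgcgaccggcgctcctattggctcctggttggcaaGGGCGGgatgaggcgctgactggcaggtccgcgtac
Cox19, chr5:139345167-139345316, minus strand: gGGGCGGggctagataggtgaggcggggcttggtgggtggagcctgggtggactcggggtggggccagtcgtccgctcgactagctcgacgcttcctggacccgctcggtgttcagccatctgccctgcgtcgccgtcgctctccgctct

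As a check of the labels, the array feature for Celf4, a gene of the CELF family, lay at 5.79 to 6.14 on the log2 scale in wild type, at 11.69 to 11.75 in the mild line and at 11.26 to 11.90 in the severe line. The sources used here do not say from which CELF gene the transgene was made. Of the cardiomyocyte markers listed, 11 of 12 were measured, with Myh6 at a wild type mean of 14.18 and Myl2 at 14.96. The raw median intensity of the severe line's arrays (116 to 119) lay above that of every other array (103 to 112), and the normalization described under processing removes that difference. Of 4 smooth muscle markers, Tagln (0.70, adjusted p = 6.3e-05) and Acta2 (0.62, adjusted p = 0.00813) were higher in the severe line, while Myh11 had 0.038 (adjusted p = 0.929) and Cnn1 -0.034 (adjusted p = 0.909), and in the mild line Acta2 was lower (-0.55, adjusted p = 0.0159). The severe line had a median deviation over the 4 per array of 0.30 to 0.44 against -0.10 to 0.17 in wild type. Over the 7 fibroblast markers the same median lay at 0.16 to 0.19 in the severe line, 0.09 to 0.24 in the mild line and -0.08 to 0.05 in wild type, with Col1a1 called in the severe line (0.48, adjusted p = 0.0114). Over the 11 cardiomyocyte markers it lay at -0.14 to 0.01 in the severe line, -0.02 to 0.06 in the mild line and -0.15 to 0.10 in wild type, with 2 lower in the severe line and 2 lower and 1 higher in the mild line. Over the 8 adipose markers, which include those of brown fat, it lay at -0.20 to -0.11 in the severe line and -0.13 to 0.17 in wild type, with 0 called, and the brown fat marker Ucp1 ran from 5.92 to 7.92 in wild type around an array median of 6.28. The part of other cell types in the results below was not tested.

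The severe line had lower signals than wild type across complexes II to V. In the mild line the values of the members together lay on both sides of 0, but those of complex III were all below 0. Relative to wild type, 47 of the 55 members were below 0 in the severe line (85.5%, against 50.2% of all features), with a median log2 difference of -0.161 against -0.000 for all features. In the mild line 30 of the 55 were below 0 (54.5%, against 50%), with a median of -0.013. By heart, the median deviation of the 55 members from the wild type mean was -0.174 to -0.117 in the 3 severe line hearts, -0.056 to 0.013 in the mild line, 0.006 to 0.031 in the mild line's littermates and -0.037 to 0.014 in the severe line's littermates. The 3 severe hearts thus lay below the other 9. The medians in the severe line were -0.346 for complex II, -0.125 for complex III, -0.367 for Cycs, -0.126 for the subunits of complex IV, -0.100 for the complex IV assembly group, -0.263 for F1, -0.177 for Fo and stalk and -0.276 for the other complex V genes. In the mild line the same medians were -0.039, -0.127, -0.152, 0.012, -0.100, 0.025, -0.004 and 0.092, so complex III was the group of more than 1 gene with the lowest value there.

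**Figure D1:**
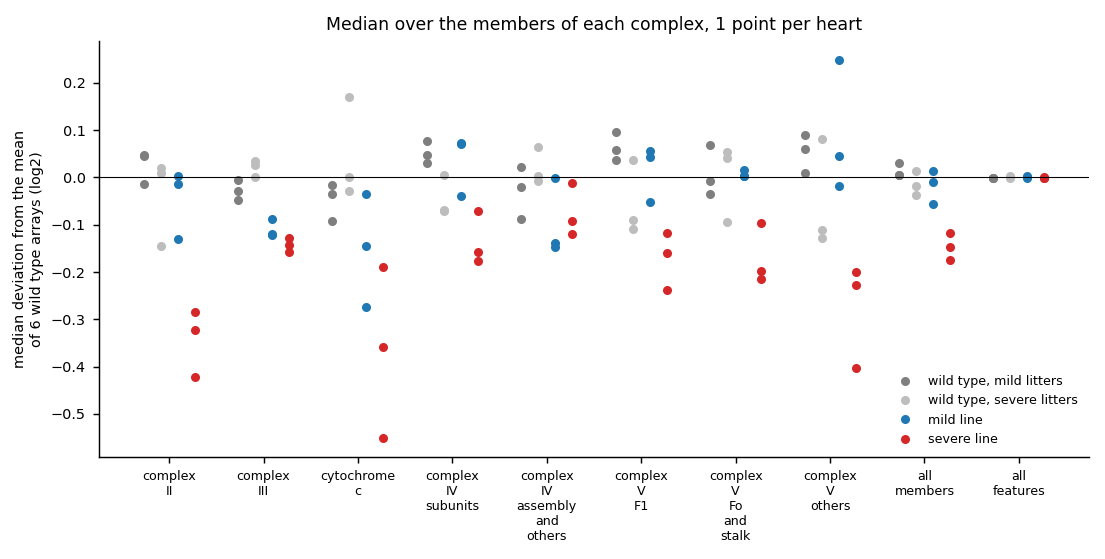
Median over the members of each complex of the deviation from the mean of the 6 wild type arrays (log2, vertical axis), with 1 point for each heart, colored by group. The 3 severe line hearts lie at -0.422 to -0.285 for complex II and at -0.174 to -0.117 over all 55 members, below the other 9 hearts, while all features together lie at 0.

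A member was called at an adjusted p under 0.05, by the fit in limma over all 30854 features. In the severe line 1 of 55 members was called higher, where 1.75% of all features were, and 10 were called lower, where 1.56% were. The count of 10 changed with the processing and with the hearts used. It was 1 without severe line replicate 1, with 189 features lower in all in place of 480. Against own littermates it was 3, with 330 features lower in all. The count was 2 with a background offset of 16, 2 with the replicate number as a block, and 30 with arrays scaled to equal medians. That scaling called 270 features higher and 857 lower in place of 539 and 480. At an unadjusted p under 0.05, 27 of the 55 members (49.1%) and 13.5% of all features passed in the severe line, and 10 members (18.2%) and 12.3% of all features in the mild line. Of the 50 members above the median signal, 54% passed in the severe line and 20% in the mild line. For all features above the median signal the shares were 21.3% and 19.3%. In the mild line 1 member was called higher (background 1.62%) and 1 lower (background 1.93%). Another view is whether the 3 hearts of a line lay outside the range of the 6 wild type hearts. In the severe line 14 members lay below that range (background 3.63%) and 2 above it (background 3.59%). In the mild line 4 lay below (background 3.92%) and 1 above (background 3.6%). None of these changes was large. By the methods' rule, which asks for at least a 2-fold change and for either a raw p below 0.001 or an adjusted one below 0.05, 0 members passed in the mild line (0.269% of all features did) and 0 in the severe line (0.136%).

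**Figure D2:**
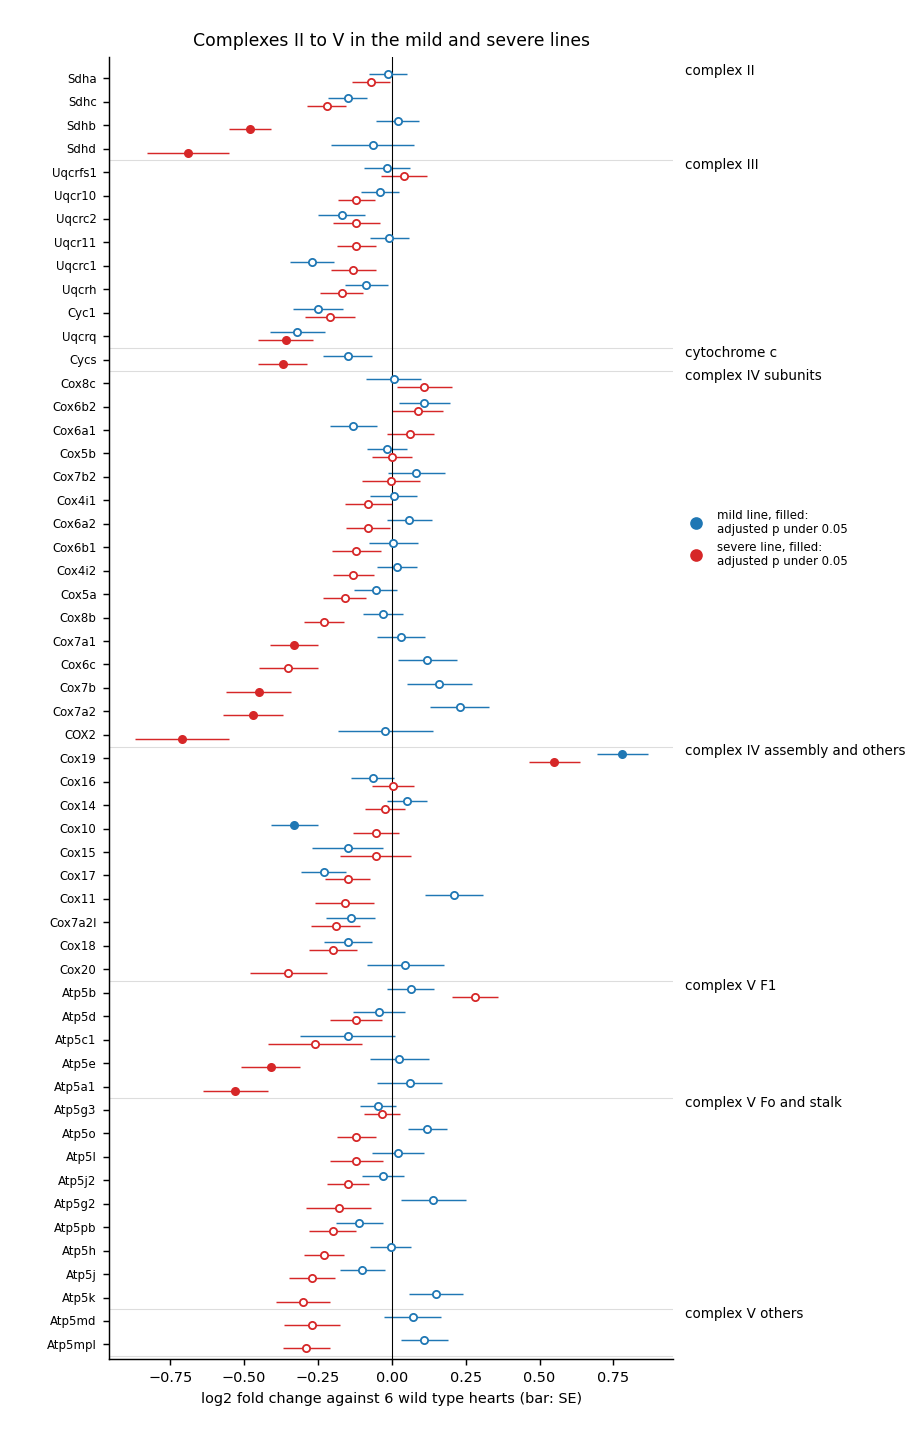
Log2 fold change against the 6 wild type hearts (horizontal axis, bars are 1 SE of the limma fit) for all 55 members by role, with the mild line in blue and the severe line in red. Filled points have an adjusted p under 0.05, which are 11 members in the severe line and 2 in the mild line.

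Complex II was the group with the lowest median in the severe line among those with more than 1 gene. Of its 4 subunits, 2 fell there, where 1.56% of all features did. At an unadjusted p under 0.05, 3 of the 4 passed (13.5% of all features). Sdhb encodes the iron-sulfur subunit, which carries electrons from the flavin to ubiquinone. Its signal ran from 11.74 over a median of 11.93 to 11.98 in the 6 wild type hearts, was 11.99, 11.80 and 11.96 in the mild line, and was 11.33, 11.46 and 11.47 in the severe line. Every severe line heart was below every other heart, and the mild line overlapped with wild type. The log2 fold change was -0.48 in the severe line (n = 3 and 6, adjusted p = 5.1e-04, SE 0.072), a level of 0.72 times wild type, and 0.019 in the mild line (adjusted p = 0.956). Against its own littermates the severe line gave -0.47 (adjusted p = 0.00378).

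Sdhd encodes one of the membrane anchors of complex II. It ran from 8.85 over 9.36 to 9.54 in wild type, was 9.45, 9.03 and 9.20 in the mild line, and was 8.48, 8.43 and 8.88 in the severe line. The highest severe heart overlapped with the lowest wild type heart, a littermate of the severe line. Its log2 fold change was -0.69 in the severe line (adjusted p = 0.00721, SE 0.14) and -0.065 in the mild line (adjusted p = 0.923). The littermates of the mild line were 0.45 higher than those of the severe line (adjusted p = 0.204), and against its own littermates the severe line had -0.47 and missed the threshold (adjusted p = 0.0591). It also missed the threshold when severe line replicate 1 (-0.63, adjusted p = 0.0667) or 2 (-0.61, adjusted p = 0.051) was left out.

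The other 2 subunits did not pass the test. Sdhc, the partner of Sdhd in the membrane anchor, had log2 fold changes of -0.15 in the mild line (adjusted p = 0.327) and -0.22 in the severe line (adjusted p = 0.0962). Sdha, the flavoprotein, had a feature near the array median (5.99 to 6.10 in wild type). Its log2 fold changes were -0.013 and -0.072 (adjusted p = 0.97 and 0.717). The factors that assemble complex II were part of a list of other genes of the pathway, and were singled out after their values were seen. Sdhaf1 and Sdhaf3 help to put iron-sulfur clusters into the Sdhb protein, and Sdhaf2 and Sdhaf4 help with the flavin of the Sdha protein. All 4 of them fell in the severe line, where 1.56% of all features did. The log2 fold changes were -0.35 for Sdhaf1 (adjusted p = 0.0336), -0.33 for Sdhaf2 (0.0179), -0.37 for Sdhaf3 (0.0046) and -0.38 for Sdhaf4 (0.0222). Sdhaf3 was at 8.16, 8.17 and 8.17 in the severe line, below the wild type range of 8.41 to 8.62, and at 8.42, 8.53 and 8.68 in the mild line. For the mild line the 4 log2 fold changes ran from 0.0072 to 0.14, with adjusted p of 0.465 or more.

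**Figure D3:**
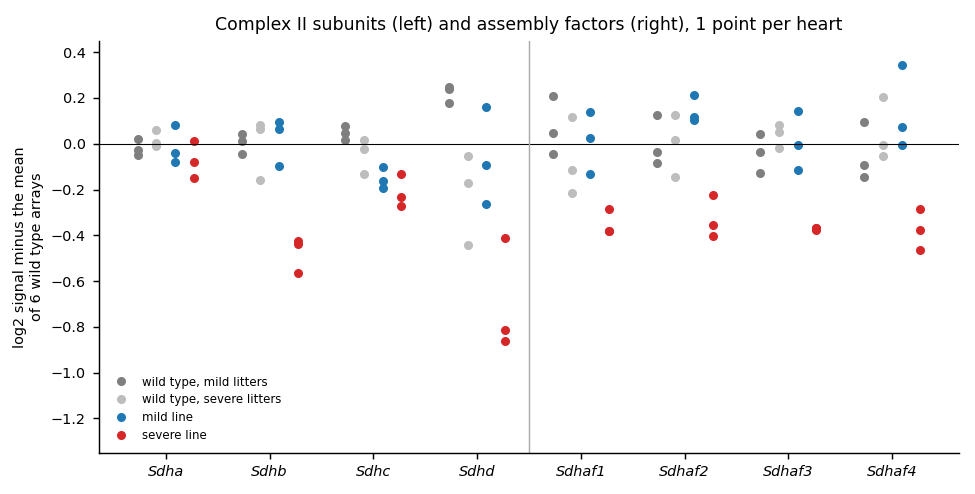
Log2 signal minus the mean of the 6 wild type arrays (vertical axis) for the 4 subunits of complex II and its 4 assembly factors, with 1 point for each heart. For Sdhb and for each assembly factor the 3 severe line hearts lie below all other hearts, with Sdhaf3 at 8.16, 8.17 and 8.17, while for Sdhd they overlap with the littermates of the severe line.

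In complex III, 1 of 8 members fell in the severe line, where 1.56% of all features did. At an unadjusted p under 0.05, 3 of the 8 passed there (13.5% of all features). In the mild line 0 were called (1.62% of all features rose and 1.93% fell). Of the 8, 4 had an unadjusted p under 0.05 there (12.3% of all features). All 8 had a value below 0 in the mild line, with Uqcr11 (-0.0085) and Uqcrfs1 (-0.016) close to 0, and 7 of 8 in the severe line. Against own littermates 6 of 8 were below 0 in the mild line and 8 of 8 in the severe line. Uqcrq, a small subunit near the ubiquinone site, ran from 8.09 over 8.44 to 8.58 in wild type, was 8.19, 8.02 and 8.0 in the mild line, and was 7.97, 8.16 and 7.97 in the severe line. Both lines were low and both had 1 heart inside the wild type range. The log2 fold change was -0.36 in the severe line (adjusted p = 0.0393, SE 0.093) and -0.32 in the mild line (adjusted p = 0.0648, SE 0.093). Against its own littermates it was the mild line that passed (-0.41, adjusted p = 0.0329), and the severe line did not (-0.27, adjusted p = 0.235). The severe call ended without any of 7 single hearts, among them severe line replicates 1 (-0.33, adjusted p = 0.208) and 3 (-0.33, adjusted p = 0.164), severe littermate 3 (-0.33, adjusted p = 0.0706), mild littermates 1 to 3 (-0.34, -0.35 and -0.32, adjusted p = 0.0729, 0.0749 and 0.0777) and mild line replicate 2 (-0.36, adjusted p = 0.0523). A second Uqcrq feature, near the array median at 6.24, gave 0.12 (adjusted p = 0.722).

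Among the catalytic and core genes of complex III, Uqcrc1, Uqcrc2 and Cyc1 did not pass the test. Uqcrfs1 had a feature near the array median (6.11 to 6.31 in wild type), so its change could not be judged. The mitochondrially encoded CYTB was outside the naming rule. Uqcrc1, a core subunit, was 13.53, 13.43 and 13.17 in mild hearts and 13.55, 13.53 and 13.47 in severe hearts, against 13.59 to 13.72 in wild type, so no transgenic heart reached the wild type range. Its log2 fold changes were -0.27 (adjusted p = 0.0508) and -0.13 (adjusted p = 0.486). Cyc1, the heme protein that hands electrons to cytochrome c, was likewise below the wild type range of 13.01 to 13.35 in all 6 transgenic hearts, at 12.99, 12.81 and 12.84 in the mild and 12.99, 12.93 and 12.82 in the severe line. Its values were -0.25 (adjusted p = 0.148) and -0.21 (adjusted p = 0.231). The brightest member of the complex, Uqcr10, another small subunit, had -0.041 and -0.12 (adjusted p = 0.881 and 0.471).

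Cycs, cytochrome c, fell in the severe line. It ran from 11.97 over 12.04 to 12.23 in wild type, was 11.92, 11.79 and 12.03 in the mild line, and was 11.51, 11.70 and 11.87 in the severe line. The severe line hearts were below all wild type hearts, and the mild line overlapped with both. Its log2 fold change in severe hearts was -0.37 (adjusted p = 0.0171, SE 0.083) and -0.15 in the mild line (adjusted p = 0.508, SE 0.083). Against its own littermates the severe line gave -0.41 (adjusted p = 0.0256). The call ended without severe line replicate 1 (-0.28, adjusted p = 0.174) or 2 (-0.37, adjusted p = 0.0538).

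Among the 16 subunits of complex IV, 4 fell in the severe line (1.56% of all features did) and 0 rose (1.75% did). At an unadjusted p under 0.05, 7 of the 16 passed there (13.5% of all features). In the mild line 0 were called (1.62% of all features rose and 1.93% fell). Of the 16, 1 had an unadjusted p under 0.05 in the mild line (12.3% of all features). The 4 that fell were the mitochondrially encoded COX2 and the nuclear Cox7a1, Cox7a2 and Cox7b, small subunits of the outer part of the enzyme. COX2, which holds the copper site that receives electrons from cytochrome c, lies on the mitochondrial genome (MT:7013-7696, GRCm38.p6). It ran from 12.29 over 12.89 to 13.03 in wild type, was 12.67, 12.50 and 13.18 in the mild line, and was 11.78, 12.10 and 12.41 in the severe line. One severe heart overlapped with a low littermate of the severe line. The log2 fold change was -0.71 (adjusted p = 0.0177, SE 0.16) in the severe and -0.022 (adjusted p = 0.979) in the mild line. Against its own littermates the severe line had -0.54 (adjusted p = 0.138). The call ended without severe line replicate 1 (-0.55, adjusted p = 0.179) or 2 (-0.71, adjusted p = 0.0577).

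Cox7a1 and Cox7a2 are the muscle and the widely used isoform of the same subunit, and both fell in the severe line. Cox7a2 ran from 8.84 over 9.07 to 9.23 in wild type, was 9.33, 9.09 and 9.44 in the mild line, and was 8.30, 8.73 and 8.72 in the severe line. The severe hearts were below all others, and 2 of the 3 mild hearts were above all wild type hearts. Its log2 fold change was -0.47 in the severe line (adjusted p = 0.0141, SE 0.1) and 0.23 in the mild line (adjusted p = 0.355). Cox7a1 ran from 14.72 over 14.86 to 15.06 in wild type, was 15.01, 14.80 and 14.89 in the mild line, and was 14.42, 14.67 and 14.51 in the severe line. The severe hearts were again below all others, with -0.33 (adjusted p = 0.0256, SE 0.081), and the mild line had 0.032 (adjusted p = 0.934). Without severe line replicate 1 neither passed (Cox7a2 -0.33, adjusted p = 0.161; Cox7a1 -0.27, adjusted p = 0.207), and Cox7a1 also failed without severe line replicate 3 (-0.32, adjusted p = 0.102) or mild littermate 2 (-0.30, adjusted p = 0.05). Against own littermates they had -0.38 (adjusted p = 0.11) and -0.26 (adjusted p = 0.168).

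Cox7b, a small X-linked subunit (chrX:106015700-106022450, GRCm38.p6), ran from 8.16 over 8.28 to 8.70 in wild type, was 8.57, 8.35 and 8.58 in the mild line, and was 7.69, 8.03 and 7.95 in the severe line. The severe hearts were below all others. In severe hearts the log2 fold change was -0.45 (adjusted p = 0.0299, SE 0.11) and 0.16 in the mild line (adjusted p = 0.655). The littermates of the severe line were themselves at the low end of wild type, and against them the difference was -0.28 (adjusted p = 0.216). The call ended without severe line replicates 1 (-0.36, adjusted p = 0.238) or 3 (-0.48, adjusted p = 0.0736) and without mild littermates 1 (-0.43, adjusted p = 0.0571) or 2 (-0.44, adjusted p = 0.0625).

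Neither line passed the test for the other isoform pairs of complex IV. Cox6a2, the heart and muscle isoform and the brightest complex IV subunit, had 0.059 in mild and -0.081 in severe hearts (adjusted p = 0.854 and 0.73), and the widely used Cox6a1 had -0.13 and 0.062 (adjusted p = 0.567 and 0.823). The common Cox4i1 had 0.0059 and -0.08 (adjusted p = 0.988 and 0.755), and Cox4i2, a form known from lung, had 0.017 and -0.13 (adjusted p = 0.959 and 0.427). Cox8b, the muscle form of its subunit, had -0.03 and -0.23 (adjusted p = 0.928 and 0.0865), with the severe hearts at 14.10, 14.21 and 14.10 below the wild type range of 14.24 to 14.51. Cox6b1 had 0.0052 and -0.12 (adjusted p = 0.989 and 0.599). The testis forms Cox6b2, Cox7b2 and Cox8c had features near the array median, with wild type ranges of 6.18 to 6.43, 5.74 to 6.10 and 5.73 to 6.00. Over all features above the median signal, 51.8% had a value below 0 in the severe line, and 45 of the 50 members above it did.

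Of the 10 assembly factors and other Cox-named genes, Cox19 rose in both lines and Cox10 fell in the mild line. Over all features, 1.62% rose and 1.93% fell in the mild line, and 1.75% rose and 1.56% fell in the severe line. Cox19 is a copper-binding protein of the space between the mitochondrial membranes that is needed to build complex IV. It ran from 10.12 over 10.22 to 10.49 in wild type, was 11.11, 10.94 and 11.07 in the mild line, and was 10.86, 10.92 and 10.65 in the severe line. All 6 transgenic hearts were above all wild type hearts, and the mild line hearts were above the severe ones. Mild hearts had a log2 fold change of 0.78 (adjusted p = 1.4e-05, SE 0.086), a level of 1.72 times wild type, and severe hearts one of 0.55 (adjusted p = 8.1e-04, SE 0.086), a level of 1.46 times wild type. Both comparisons used the same 6 wild type hearts. Against own littermates the values were 0.89 (adjusted p = 6.5e-06) and 0.44 (adjusted p = 0.00912), and the direct difference between the lines was -0.23 (adjusted p = 0.339).

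Cox10, the enzyme that starts the making of heme A for complex IV, ran from 11.65 over 11.83 to 12.01 in wild type, was 11.45, 11.58 and 11.46 in the mild line, and was 11.77, 11.83 and 11.70 in the severe line. The mild hearts were below all wild type hearts and the severe hearts were inside their range. For the mild line the log2 fold change was -0.33 (adjusted p = 0.0249, SE 0.079), and for the severe line it was -0.054 (adjusted p = 0.854). The call ended without mild line replicates 1 (-0.30, adjusted p = 0.128) or 3 (-0.31, adjusted p = 0.125) and without severe littermate 3 (-0.30, adjusted p = 0.053), and against own littermates the value was -0.28 (adjusted p = 0.165). Cox17, which carries copper to the assembly site, was also below the wild type range of 11.86 to 12.10 in the mild line, at 11.79, 11.82 and 11.66, with -0.23 (adjusted p = 0.125). Cox14, which acts early in assembly and was the brightest of the group, had 0.051 and -0.024 (adjusted p = 0.856 and 0.932). The other members of the group had values of -0.15 to 0.21 in the mild and -0.35 to 0.0044 in the severe line, and none passed the test.

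**Figure D4:**
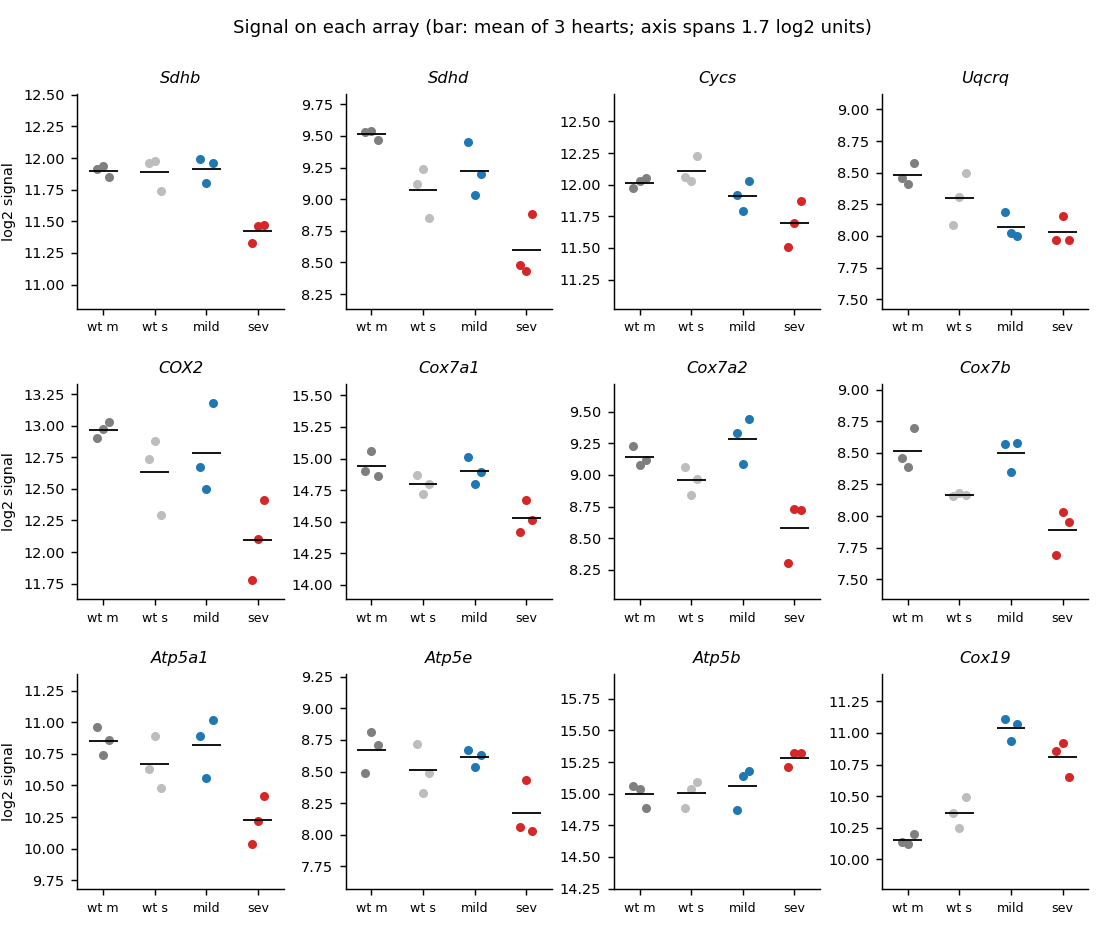
Log2 signal of 12 members on each array (vertical axis) in the littermates without the transgene from the mild (wt m) and severe line (wt s), the mild line and the severe line (sev), 3 hearts each with a bar at their mean. Sdhb lies at 11.33, 11.46 and 11.47 in the severe line against at least 11.74 in wild type, and Cox19 is above all wild type hearts in both lines.

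In the F1 head of complex V, Atp5a1 and Atp5e fell in the severe line, where 1.56% of all features did. The brightest gene of the head, Atp5b, was on the other side of wild type. Atp5a1 and Atp5b encode the alpha and beta subunits, which form the catalytic ring together in equal number. Atp5a1 ran from 10.48 over 10.80 to 10.96 in wild type, was 10.89, 10.56 and 11.02 in the mild line, and was 10.04, 10.22 and 10.42 in the severe line. The severe hearts were below all others. The log2 fold change was -0.53 in the severe line (adjusted p = 0.0109, SE 0.11) and 0.06 in the mild line (adjusted p = 0.909). Leaving out severe line replicate 1 ended the call (-0.44, adjusted p = 0.118), as did the use of own littermates alone (-0.44, adjusted p = 0.0879). A dimmer second Atp5a1 feature, with a wild type mean of 8.21, gave -0.15 (adjusted p = 0.585).

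Atp5b ran from 14.89 over 15.04 to 15.09 in wild type, was 14.87, 15.14 and 15.18 in the mild line, and was 15.21, 15.32 and 15.32 in the severe line. All 3 severe hearts were above all wild type hearts. Its log2 difference of 0.28 (SE 0.078) did not pass the test (adjusted p = 0.0554), and the mild line had 0.063 (adjusted p = 0.843). Against own littermates the severe line had 0.28 (adjusted p = 0.155). Atp5e, the small epsilon subunit of the central stalk, ran from 8.33 over 8.60 to 8.81 in wild type, was 8.67, 8.54 and 8.63 in the mild line, and was 8.06, 8.43 and 8.03 in the severe line, where 1 heart was inside the wild type range. Severe hearts had a log2 fold change of -0.41 (adjusted p = 0.0327, SE 0.1) and 0.025 in the mild line (adjusted p = 0.963). The call ended without severe line replicates 1 (-0.36, adjusted p = 0.209) or 3 (-0.34, adjusted p = 0.185), severe littermate 1 (-0.39, adjusted p = 0.0604) or mild littermates 2 (-0.37, adjusted p = 0.071) or 3 (-0.39, adjusted p = 0.0658), and against own littermates (-0.34, adjusted p = 0.187). Atp5c1, the rotating gamma shaft, and Atp5d, at its foot, had -0.26 and -0.12 in severe hearts (adjusted p = 0.53 and 0.627).

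None of the 9 genes of the Fo part and stalk was called in either line. Over all features, 1.75% rose and 1.56% fell in the severe line, and 1.62% and 1.93% in the mild line. All 9 had a value below 0 in the severe line (4 at an unadjusted p under 0.05, where 13.5% of all features were). Their values there ran from -0.30 to -0.04, and in the mild line from -0.11 to 0.15 (0 at an unadjusted p under 0.05). Atp5j and Atp5h, parts of the stalk that holds the head in place, lay below the wild type range in all 3 severe hearts. Atp5j was 12.51, 12.69 and 12.78 against 12.81 to 13.06 in wild type, with -0.27 (adjusted p = 0.072, SE 0.077), and against own littermates it passed at -0.34 (adjusted p = 0.0442). Atp5h was 12.96, 12.90 and 12.97 against 13.05 to 13.30, with -0.23 (adjusted p = 0.0882). Atp5g2 and Atp5g3 encode the same subunit of the turning ring. Atp5g3, the brightest member of all 55, had -0.048 in mild and -0.035 in severe hearts (adjusted p = 0.853 and 0.883), and Atp5g2 had 0.14 and -0.18 (adjusted p = 0.676 and 0.52). Atp5mpl, a small protein bound to complex V, was below the wild type range of 14.01 to 14.31 in the severe line, at 13.78, 13.87 and 13.89, with -0.29 (adjusted p = 0.0582, SE 0.08). Its dimmer second feature had -0.12 there (adjusted p = 0.539).

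Compared directly, the severe line was lower than the mild line for 7 of 55 members (0.596% of all features were lower) and higher for 0, where 0.771% were. The 7 were Cox7a2, Cox7b, Atp5a1, Sdhb, Cox6c, Atp5k and Atp5mpl, and their values ran from -0.70 to -0.40. None of them belongs to complex III, where the median difference between the lines was 0.001, with 4 values above and 4 below 0. For Cox7a2 the difference was -0.70 (n = 3 and 3, adjusted p = 0.00436, SE 0.12) and for Sdhb -0.50 (adjusted p = 0.00359, SE 0.083), with no overlap of the hearts in either. Cox7b had -0.61 (adjusted p = 0.0209, SE 0.13) and Atp5a1 -0.59 (adjusted p = 0.0276, SE 0.13). The dimmer second Atp5a1 feature had -0.066 (adjusted p = 0.88). Cox6c, a nuclear subunit of complex IV, was 13.67, 13.33 and 13.61 in the mild and 13.05, 12.93 and 13.20 in the severe line, with -0.47 (adjusted p = 0.0493). Atp5k, subunit e of the Fo part, was 7.08, 6.84 and 7.04 against 6.49, 6.54 and 6.60, with -0.45 (adjusted p = 0.0413). These signals were not far above the array median of 6.28. In the authors' log2 table Atp5k missed the threshold (-0.34, adjusted p = 0.0524), as it did with a background offset of 16 (-0.65, adjusted p = 0.102). Atp5mpl was 14.21, 14.15 and 14.38 against 13.78, 13.87 and 13.89, with -0.40 (adjusted p = 0.0366), and its dimmer second feature had -0.083 (adjusted p = 0.784). With the features of a gene averaged, neither Atp5a1 (-0.33, adjusted p = 0.146) nor Atp5mpl (-0.24, adjusted p = 0.187) passed.

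Of these direct calls, 5 missed the threshold when a single heart was left out, with values that stayed at -0.33 or lower. Fewer features passed in all then, with 55, 97 and 64 lower in place of 184 without severe line replicate 1, mild line replicate 1 and mild line replicate 3. Without severe line replicate 1, 5 of the 7 did not pass: Cox7b (-0.51, adjusted p = 0.132), Atp5a1 (-0.50, 0.163), Cox6c (-0.47, 0.16), Atp5k (-0.42, 0.164) and Atp5mpl (-0.37, 0.163). The same 5 did not pass without mild line replicate 1 (-0.58, -0.56, -0.41, -0.40 and -0.42, adjusted p = 0.0923, 0.107, 0.194, 0.155 and 0.0793) or 3 (-0.57, -0.50, -0.44, -0.42 and -0.33, adjusted p = 0.107, 0.165, 0.189, 0.166 and 0.18). Without severe line replicate 2 the calls of Atp5a1 (-0.60, adjusted p = 0.0768), Cox6c (-0.42, 0.175), Atp5k (-0.45, 0.104) and Atp5mpl (-0.41, 0.0827) ended, and without replicate 3 those of Cox6c (-0.54, 0.0529), Atp5k (-0.48, 0.0732) and Atp5mpl (-0.43, 0.0648). Atp5mpl also failed without mild line replicate 2 (-0.45, adjusted p = 0.0525), and Cox6c and Atp5k without mild littermate 1 (-0.47 and -0.44, adjusted p = 0.0595 and 0.0518) and Cox6c without mild littermate 3 (-0.47, adjusted p = 0.0568). Only Cox7a2 and Sdhb passed without each of the 12 hearts in turn.

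The direct comparison also holds any difference between the litters. When the change of each line against its own littermates was compared between the lines, 0 of 55 members were called by limma, where 0.207% of all features were higher and 0.0583% lower, with 7 members (12.7%) and 7.31% of all features at an unadjusted p under 0.05. Those 7 were Sdhb, Cox19, Cox7a2, Atp5mpl, Atp5j, Cycs and Atp5a1, all with a negative value. The negative value of Cox19 (-0.45) stands for a smaller rise in the severe line (0.44) than in the mild line (0.89), and not for a fall. For Sdhb the difference of the changes was -0.49 (adjusted p = 0.147, SE 0.12) and for Cox7a2 it was -0.52 (adjusted p = 0.369, SE 0.16). Between the 2 sets of wild type littermates 0 of 55 members were called, where 0.0616% of all features were higher in the mild line's littermates and 0.0259% were lower, with 10 members (18.2%) and 9.97% of all features at an unadjusted p under 0.05. The members' values there ran from -0.37 to 0.45, which is as large as several of the differences between the lines.

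The other genes of the pathway were taken from a list of 61, of which 56 were measured, 1 of them (Usmg5) an older name of the member Atp5md. In the severe line 1 of the 56 rose (1.75% of all features did) and 16 fell (1.56% did). The median was -0.210, against -0.000 for all features. The 16 include the assembly factors of complex II named above. In the mild line 1 rose (1.62% of all features did) and 8 fell (1.93% did). The median was -0.130, against 0.000 for all features. Etfdh, which feeds electrons from fatty acid oxidation into ubiquinone next to complex II, fell in both lines. It ran from 10.40 over 10.76 to 10.93 in wild type, was 10.10, 9.91 and 10.14 in the mild line, and was 9.91, 10.09 and 9.99 in the severe line. No transgenic heart reached the wild type range, and the log2 fold changes were -0.67 (adjusted p = 2.3e-04) and -0.73 (adjusted p = 1.5e-04). Etfa, a part of the carrier that delivers those electrons, had -0.32 (adjusted p = 0.0106) and -0.24 (adjusted p = 0.072).

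Atpif1, the inhibitor protein of the F1 head, rose in both lines. It ran from 13.21 over 13.27 to 13.40 in wild type, was 13.76, 13.80 and 13.75 in the mild line, and was 13.58, 13.50 and 13.63 in the severe line. All 6 transgenic hearts were above wild type, with log2 fold changes of 0.49 (adjusted p = 6.1e-05) in the mild and 0.29 (adjusted p = 0.012) in the severe line. Slirp, which protects mitochondrial messages together with Lrpprc, fell in the severe line (-0.52, adjusted p = 0.013) and had 0.016 in the mild line, while Lrpprc itself fell in both (-0.28 and -0.27, adjusted p = 0.0193 and 0.0249). Ucp3, an uncoupling protein of muscle mitochondria, fell in both lines (-0.37 and -0.48, adjusted p = 0.0301 and 0.00586). Its feature was near the array median of 6.28, at 6.58 to 7.07 in wild type, 6.36 to 6.54 in mild and 6.18 to 6.39 in severe hearts. Cs, citrate synthase, fell in the severe line (-0.41, adjusted p = 0.0195) with -0.34 in mild hearts (adjusted p = 0.0553).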

How the data were processed

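Whole heart RNA from 12 mice was measured on MouseWG-6 v2.0 BeadChips of Illumina, and the position of each array on a BeadChip was not given in the sources used here. The authors deposited a table of raw bead intensity per probe and a table of normalized log2 values of the same arrays; the submitters' processing notes name GenomeStudio and limma, with no version. The log2 table deposited by the authors served as an alternative only. Of 45281 probe identifiers, 34885 had 1 gene symbol, 18 had several and 10378 had none. Identifiers with identical values were merged to 30854 features, and 6 lines without an identifier were left out. Raw intensities were background corrected by normexp with an offset of 50, quantile normalized and log2 transformed. limma 3.58.1 in R 4.3.3 fitted wild type, mild and severe groups together, and a fit of the 4 groups gave each line against its own littermates, with Benjamini-Hochberg adjustment over all features. The fit was first tested on simulated data. Signals are not comparable between probes.

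Named genes were, in each role group, members called in a comparison (up to the 4 with the largest change), the brightest member and isoform pairs. Up to 4 called genes per line of the other pathway genes were added. Further genes were described outside this rule. Among them, Uqcrc1, Cyc1, Cox17, Atp5h and Atp5j lay below the wild type range in every heart of a line. Cox5a and Cox18 did so too in the severe line and are not described singly. The members and lists were chosen with earlier results of these data known. Replicates are separate hearts. The p-values rest on a spread between hearts that all groups share and that limma moderates with the other features. In the main fit, differences between the litters of the pooled wild type hearts are part of that spread. The number of arrays limits the precision. Alternatives covered the background correction, scaling, filter, fit and thresholds, and leaving out each heart. Genes without a named probe were not analysed here.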

Additional observations from a re-analysis of the deposited data

Results flagged for a closer look

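In 3 of the 28 members named by the rule, 1 of the 6 wild type hearts stood far from the other 5. Such a gap is met by chance in about 1 in 20 groups, and 5 of the 55 members had one. For Atp5g3, severe line littermate 2 was lowest at 15.14, with the others at 15.24 to 15.28. The same heart was lowest for Atp5k at 6.51, with the others at 6.85 to 6.98, and without it the severe line was called lower for Atp5k. For Cycs, severe line littermate 3 was highest at 12.23, with the others at 11.97 to 12.06.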

How the results depend on the processing

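No called value changed direction under the alternatives run, while the median of complex II in the mild line, near 0, ran from -0.083 to 0.016 without single hearts. Of the main counts and medians, 432 alternative values stayed close and 56 moved. A median was taken as close if it moved by less than the SD of its value over the wild type arrays. Several main counts were 0 or 1 and stayed the same without each single heart. The tally therefore does not describe the larger counts, which follow. The count of members lower in the severe line (10) was 2 with a background offset of 16 and 30 with arrays scaled to equal medians. Against own littermates it was 3, where 330 features were lower in all in place of 480. It was 2 with the replicate number as a block, 2 at an adjusted p under 0.01, and 1 (without severe line replicate 1) to 11 without single hearts. Its count of higher members (1) was 2 without background correction, in the authors' table, above the median signal, with only the groups compared and with identical probes apart, and 1 to 2 without single hearts. The count lower in the mild line (1) was 2 without background correction, with equal medians, in the authors' table, with features averaged and with identical probes apart, 3 above the median signal or with array weights, 0 with offset 16, the replicate block or an adjusted p under 0.01, and 0 to 2 without single hearts. The severe line was lower than the mild line for 1 member with offset 16, 11 with equal medians, 4 with features averaged, 2 at an adjusted p under 0.01, and 2 to 9 without single hearts (main 7). All of these counts were 0 at a fold change of 2. The causes were not tested.

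With equal medians the severe line's medians were -0.508 for complex II, -0.363 for complex III, -0.313 and -0.229 for complex IV subunits and assembly, -0.459 for F1 and -0.346 for Fo, while the median of the brightest 3086 features was -0.143 (0.001 in the main fit). Above the median signal they were -0.476 for complex II, and -0.167 for complex III in the mild line. With own littermates, with or without the replicate block, complex III was -0.086 in the mild and -0.159 in the severe line, and complex IV assembly was -0.050 in the mild line. Without single hearts complex III ran from -0.145 to -0.090 in the mild and -0.158 to -0.114 in the severe line, and F1 from -0.341 to -0.174 in the severe line. Hearts of the same number did not pair: their deviations correlated at 0.097, -0.019 and -0.066 in the mild and -0.161, -0.36 and 0.013 in the severe line.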

Other observations

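Features of mitochondrially encoded genes outside the naming rule were read after the values of COX2 were seen, and did not all follow it. ND4L, a small subunit of complex I, had a log2 fold change of -0.99 in severe hearts (adjusted p = 0.0373 in limma, SE 0.25), at 8.57 to 8.97 against 9.01 to 10.48 in wild type. The others did not pass the test in the severe line, with -0.21 for ATP6 (adjusted p = 0.524), -0.20 for ND1 (0.517), -0.092 for ND4 (0.697), 0.12 for CYTB (0.581), 0.36 for ND5 (0.672) and 0.027 for ND6 (0.925). In the mild line the values of these 7 genes ran from -0.13 for CYTB to 0.36 for ND4L (adjusted p = 0.6 and 0.658).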
